A study of Mus musculus with 8 samples.

Results

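RNA of recipient cells from pups that had received maternal-strain bone marrow in utero (mIUT) was compared with RNA of recipient cells from uninjected pups. The comparison uses 2 of the 8 libraries of the series, 1 pooled library a side, chosen by their labels, with the gene table and the T- and B-cell receptor (TCR and BCR) tables of both. All pups were F1 hybrids. Their fathers were BALB/c, and their mothers were CD11c-DTR mice of B6 background, in which the CD11c promoter drives a diphtheria toxin receptor. The dams of mIUT pups were given saline on embryonic day 13, so that their DC were not depleted, and each fetus received 5000000 B6 bone marrow mononuclear cells into the liver on embryonic day 14. These donor cells carried CD45.1 and H2K-b. Uninjected pups came from dams given diphtheria toxin or saline, and the sources used here do not divide the pool between them. At the age of 1 week, cells were harvested from whole bodies and sorted by H2K-d, the BALB/c class I molecule that neither B6 donor cells nor maternal cells carry. BALB/c donor cells do carry it, so the recipient libraries of BALB/c donor transplants can hold donor cells. Their share there was not tested. The labels call the cells mononuclear. The mIUT library pooled 7 pups and the uninjected library 17 pups. Recipient libraries of pups given 5000000 BALB/c cells on embryonic day 14 (pIUT and DC-depleted pIUT), 5 pups each, are set beside these. On embryonic day 13, dams of pIUT pups were given saline. Dams of DC-depleted pIUT pups were given diphtheria toxin at 5 ng per g of body weight on that day. With no replicate library, the differences below are between these libraries and not between conditions, and no p value was computed.

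At this age, the liver and spleen of a mouse still make blood beside the marrow. Neutrophils mature through stages, with primary-granule genes such as Mpo and Elane expressed in promyelocytes, and secondary-granule and S100 genes expressed later. Red-cell precursors fill with hemoglobin and heme enzymes. Developing B and T cells join V, D and J segments with the RAG1 and RAG2 nucleases, and the enzyme TdT, the product of Dntt, adds bases at the joins. TdT is low before birth, so fetal junctions carry few added bases.

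The libraries were of similar depth, with 41597395 counts in mIUT and 47965130 in uninjected, and the 8 libraries of the series ranged from 38543457 to 47965130. The uninjected library nevertheless held fewer genes, with 9937 above 3 counts against 14585 in mIUT and 10664 to 17806 in the other libraries. In the uninjected library, 224 genes at 10 CPM (counts on a common library scale) or more in each of the 7 other libraries were at 3 counts or fewer, while 0 such genes were found in mIUT. Genes at 3 counts or fewer are called not detectable below. This limit stands at 0.105 CPM in mIUT and 0.0620 CPM in uninjected. The 10 most abundant genes took 26.4% of counts in mIUT and 18.4% in uninjected.

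Strain and sex markers did not behave alike in the libraries, and they were chosen after values were seen. H2-Ea (chr17:34560926-34563618, GRCm39) encodes the class II Eα chain and is not transcribed in B6 mice, so an F1 cell transcribes the BALB/c copy. It had 339 counts in mIUT, 30.3 for every 100 counts of its partner H2-Eb1. In uninjected it had 27 counts, 0.149 for every 100 of H2-Eb1. The recipient libraries of pIUT (BALB/c donor cells) and of DC-depleted pIUT gave 48.0 and 40.1, and the maternal uninjected library gave 0 with 119780 counts of H2-Eb1. The library labelled recipient uninjected thus lay near the B6 value and goes against its label for this gene, and every direction below is drawn against that library. Maternal cells are B6 and female, yet the libraries labelled maternal mIUT and maternal DC-depleted pIUT gave 62.4 and 50.7, on 498 and 351 counts of H2-Eb1, and that labelled maternal pIUT gave 0. Among Y-linked genes, Ddx3y had 837 counts in mIUT and 0 in uninjected, Eif2s3y 2090 and 6, and Uty 396 and 3122. The library labelled maternal mIUT had 0, 2988 and 1584 counts of these, those labelled maternal pIUT and maternal DC-depleted pIUT held all of them, and the maternal uninjected library had 0 of each. Kdm5d, also Y-linked, had 0 counts in each maternal library and in uninjected. It had 38, 85 and 148 counts in the recipient libraries of mIUT, pIUT and DC-depleted pIUT. For Eif2s3y and Uty, the values thus also go against the labels of the 3 injected maternal libraries, whereas Kdm5d goes with those labels. The reason for these values was not tested.

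Of 14404 genes with at least 10 counts in either library, 6484 were at least 4-fold higher in mIUT (45.0%) and 2541 at least 4-fold lower (17.6%). A gene past 4-fold is said to be called. All 4879 tested genes that were not detectable in uninjected were called higher, which the filter fixes, since 10 counts in mIUT already lie more than 4-fold above the limit of 3 in uninjected. For the reverse case this does not hold, and 757 of 890 that were not detectable in mIUT were called lower. Among the 8635 genes above 3 counts in both libraries, 1605 were called higher (18.6%) and 1784 lower (20.7%). The median log2 ratio of mIUT over uninjected was 1.22 over all tested genes and -0.21 over genes above 3 counts in both. The shares of higher calls in the thymocyte, conventional and plasmacytoid DC, plasma-cell, cytokine and DNA replication lists below are all under the 45.0% of all tested genes. Scaling by library size alone, without the TMM factors, shifted the median over all tested genes by -0.55. Among genes above 3 counts in both libraries, that scaling gave 1266 called higher and 2438 lower, a less even split. A count of 3 or fewer was set to 3 for ratios, so that a fold against a library at 0 is a lower bound. Intervals are exact at the 95% level and cover counting error only.

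**Figure D1:**
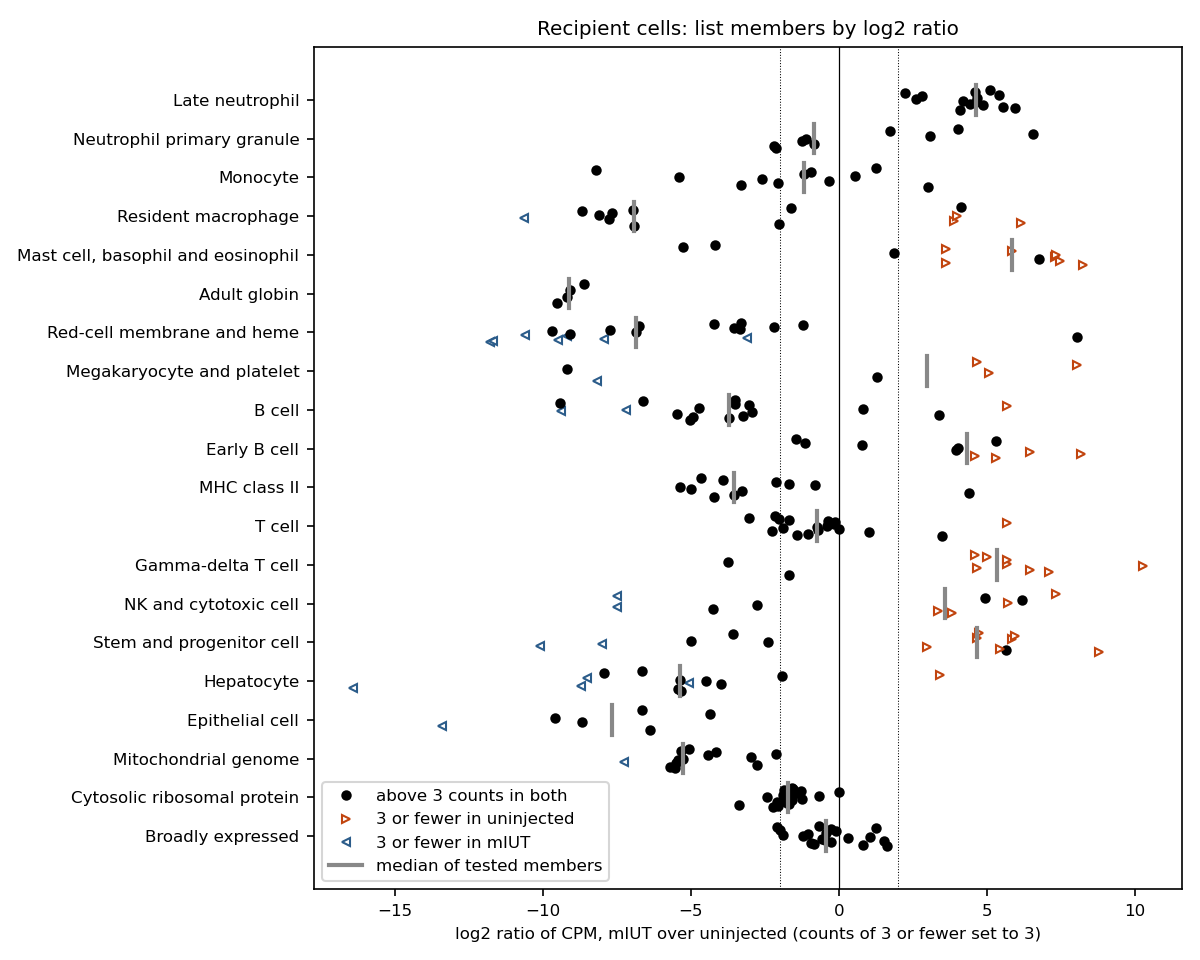
Log2 ratio of CPM, mIUT over uninjected, of each tested member of 20 gene lists. Filled points are genes above 3 counts in both libraries, right-pointing triangles are genes not detectable in uninjected, left-pointing triangles are genes not detectable in mIUT, grey bars are medians and dotted lines mark 4-fold. The 14 late neutrophil genes all lie to the right of the 4-fold line, and the 4 adult globin genes all lie to the left.

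Genes of maturing neutrophils, which are not mononuclear cells, were the most abundant group in the mIUT library. All 14 late neutrophil genes were above 3 counts in both libraries and all 14 were called higher, with a median log2 ratio of 4.62. Together they took 22.5% of all counts in mIUT and 1.32% in uninjected. Ngp (chr9:110248815-110252086), a secondary-granule protein, had 2205589 counts in mIUT and 80503 in uninjected. Its level was 76912 CPM against 1665 CPM, 46.2-fold higher (interval 45.9 to 46.5). Camp (chr9:109676442-109678685), the cathelicidin antimicrobial peptide of the same granules, had 541602 and 14810 counts and was 61.7-fold higher (60.7 to 62.7). The calcium-binding alarmins S100a9 and S100a8 were 24.8-fold and 21.3-fold higher, with 2113369 and 1912515 counts in mIUT. Lactoferrin, Ltf, was 16.9-fold higher (16.8 to 17.1). Of the list, Csf3r, the G-CSF receptor, had the least difference, with 17308 and 6173 counts and 4.73-fold (4.59 to 4.87). In bulk RNA, more cells of a type and more RNA per cell cannot be told apart.

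Primary-granule genes did not follow. Of 9 tested, 3 were called higher and 2 lower, with a median log2 ratio of -0.84. The summed list was 11777 CPM in mIUT and 7249 CPM in uninjected, opposite to its median, with Hp at 8947 and 555 CPM. Mpo (chr11:87684407-87695239), myeloperoxidase, had 28611 counts in mIUT and 212050 in uninjected and was 4.39-fold lower (4.34 to 4.45). Elane, neutrophil elastase, had 7745 and 59756 counts and was 4.57-fold lower. The serine protease genes Prtn3 and Ctsg were 1.79-fold and 2.37-fold lower and were not called. The 3 called higher were Hp, haptoglobin, at 16.1-fold, Cebpe, a transcription factor of granule maturation, at 8.43-fold, and Gfi1, a repressor needed for neutrophil differentiation, at 94.2-fold with 726 and 13 counts. Mpo and Elane thus lay on the other side from all 14 late genes.

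The late neutrophil sum was 325752 CPM in recipient mIUT, 13067 in recipient uninjected, 55086 in recipient pIUT and 8319 in recipient DC-depleted pIUT. The library labelled maternal mIUT, whose H2-Ea, Eif2s3y and Uty values go against that label, gave 191335 CPM. Mpo stood at 998 CPM in recipient mIUT, 416 CPM in recipient pIUT and 10458 CPM in recipient DC-depleted pIUT. The uninjected value of the late genes was thus between those of the pIUT libraries, whereas the recipient mIUT value was the highest of the 4 recipient libraries.

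**Figure D2:**
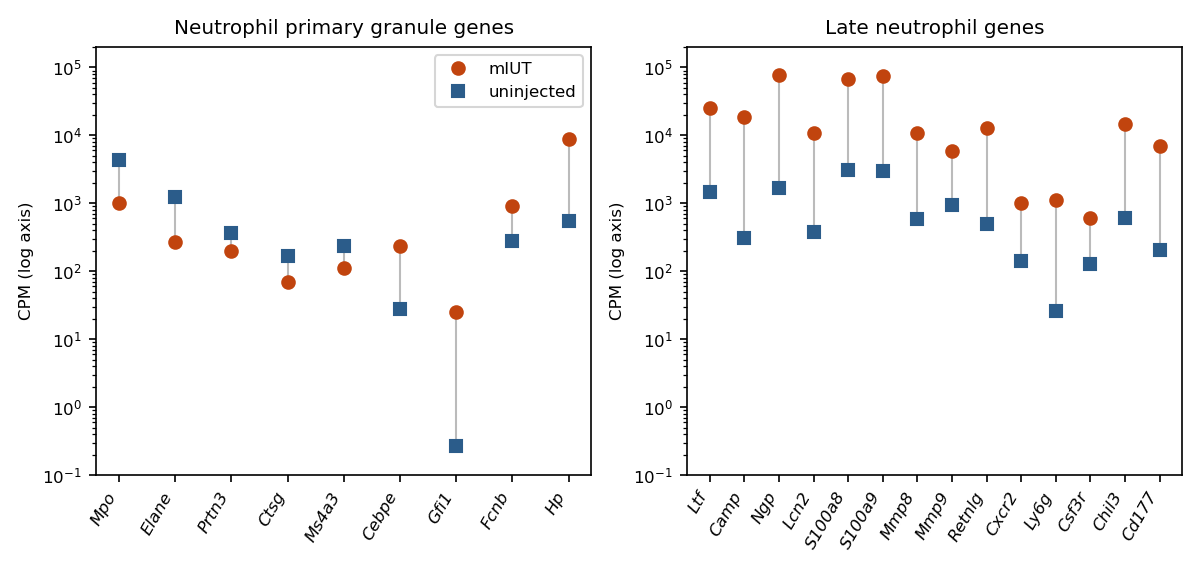
CPM on a log axis of neutrophil primary-granule genes (left) and late neutrophil genes (right) in mIUT (circles) and uninjected (squares). All 14 late genes were at least 4.73-fold higher in mIUT, while Mpo and Elane were 4.39-fold and 4.57-fold lower.

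Monocyte genes were mixed. Of 11 tested, 1 was called higher and 5 lower, with a median log2 ratio of -1.18. The sum, most of it Lyz2, was 38090 CPM in mIUT and 26449 CPM in uninjected, opposite to the median. This direction rests on the TMM factors, since the list took 2.63% of counts in mIUT and 2.67% in uninjected. Ly6c2, a surface antigen of inflammatory monocytes that immature neutrophils also carry, had 32905 counts in mIUT and 6844 in uninjected and was 8.11-fold higher (7.90 to 8.32). The called lower genes included Csf1r, the M-CSF receptor, at 4.14-fold, Ccr2, a receptor for exit from marrow, at 9.87-fold, and Fn1, fibronectin, at 293-fold. Lyz2, the lysozyme of macrophages and neutrophils, was abundant in both, with 1012284 and 1163390 counts.

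Macrophage genes were among the lowest in mIUT. Of 13 tested resident macrophage genes, 8 were called lower and 4 higher, with a median log2 ratio of -6.93, and 3 of the 4 called higher were not detectable in uninjected. The complement subunits C1qa, C1qb and C1qc had 52, 194 and 68 counts in mIUT and 24287, 66109 and 47358 in uninjected. C1qb (chr4:136606009-136613511) was 202-fold lower (176 to 234). Adgre1, which encodes the F4/80 antigen, had 167 and 34457 counts and was 122-fold lower. Vsig4, a complement receptor of Kupffer cells, had 0 and 7969 counts, at least 1575-fold lower. Against these, Slc40a1 (chr1:45947211-45965683), the iron exporter ferroportin, had 25499 and 2443 counts and was 17.6-fold higher (16.9 to 18.4). The summed list came to 1033 CPM in mIUT and 4559 CPM in uninjected, and to 442 and 1672 CPM in recipient pIUT and DC-depleted pIUT. Slc40a1 alone held 25499 of the 29633 counts of the list in mIUT, so that the mIUT sum rests mostly on this exception.

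Genes of mast cells, basophils and eosinophils gave no single direction. Of 11 tested, 8 were called higher and 2 lower, with a median log2 ratio of 5.86, and 7 of the 8 were not detectable in uninjected. Over the 4 members above 3 counts in both libraries the median was -1.16, and the summed list was 991 CPM in mIUT and 5500 CPM in uninjected. Of these 4, Hdc, the histidine decarboxylase that makes histamine, had 18276 and 8545 counts and was 3.61-fold higher and not called. Cpa3, the mast-cell carboxypeptidase, had 543 counts in mIUT and 0 in uninjected. Mcpt8, a basophil protease, had 312 and 0, and Prss34, a protease of basophils and mast cells, had 831 and 13. Both lower genes encode proteins of eosinophil granules. Prg2 (chr2:84789208-84813977), the major basic protein, had 7054 and 214316 counts and was 18-fold lower (17.6 to 18.5), and Epx, eosinophil peroxidase, had 665 and 43113 and was 38.4-fold lower. Alox15, a lipoxygenase of eosinophils and resident macrophages that was outside this list, had 82 and 86516 counts.

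Red-cell genes were much lower in mIUT. The 4 adult globin genes were all called lower, with a median log2 ratio of -9.13, and took 0.0144% of counts in mIUT and 12.4% in uninjected. Hbb-bs (chr7:103475730-103482989), an adult β-globin gene, had 2240 counts in mIUT and 2040046 in uninjected and was 540-fold lower (518 to 563). Hba-a1 (chr11:32233186-32234504) had 1575 and 1966003 counts and was 740-fold lower. Hba-a1 and Hba-a2, like Hbb-bs and Hbb-bt, are near-identical copies, so the split between each pair is uncertain, and the summed level is the safer value. That sum was 209 CPM in mIUT, 123107 in uninjected, 39930 in recipient pIUT and 25724 in recipient DC-depleted pIUT. The mIUT library was the lowest of the 4 recipient libraries and the uninjected library the highest. No embryonic globin gene reached 10 counts in either library.

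Genes of the red-cell membrane and of heme synthesis lay with the globins. Of 19 tested, 17 were called lower and 1 higher, with a median log2 ratio of -6.87, and 7 were not detectable in mIUT. Slc4a1 (chr11:102239650-102257029), the band 3 anion exchanger, had 0 counts in mIUT and 16651 in uninjected, at least 3291-fold lower. In heme synthesis, the first erythroid enzyme Alas2 had 15 and 20700 counts and was 818-fold lower (496 to 1462). Later enzymes differed less, with Urod 4.53-fold lower, Fech 18.4-fold lower and Ppox 2.29-fold lower and not called. These enzymes are also made outside the red-cell lineage. The exception was Epb41, protein 4.1, which had 779 and 5 counts.

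Erythroid transcription factors were split. Of 11 tested, 4 were called lower and 2 higher, with a median log2 ratio of -0.72. Klf1, the activator of adult β-globin, had 21 and 14310 counts and was 404-fold lower (264 to 653). Gfi1b had 0 and 4728 counts, and Zfpm1, the GATA1 cofactor FOG1, had 31 and 5629. Gata1 itself was low in both, with 63 and 45 counts. Nfe2, which neutrophils also express, had 20875 and 5676 counts and was 6.20-fold higher, and Foxo3 had 332 and 21.

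Platelet and stem-cell genes gave few counts in mIUT, 611 and 2111 over the lists, against 17964 and 18059 in uninjected. Of 6 tested megakaryocyte and platelet genes, 3 were called higher and 2 lower, with a median log2 ratio of 2.97 that turned negative among genes with at least 50 counts and was -3.94 over the 2 above 3 counts in both libraries. The 3 called higher were not detectable in uninjected. The platelet chemokine Pf4 had 17 counts in mIUT and 16486 in uninjected, while the integrin subunit Itgb3 had 473 and 0 and its partner Itga2b 0 and 1469. Of 13 tested stem and progenitor genes, 8 were called higher and 5 lower, with a median log2 ratio of 4.66, and 7 of the 8 were not detectable in uninjected. Over the 4 above 3 counts in both, the median was -2.99. Kit, the stem cell factor receptor, had 784 and 1 counts and Cd34 had 383 and 13. Procr, the protein C receptor of stem cells and endothelium, had 0 and 5531, and Slamf1 had 0 and 1308.

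Mature B-cell genes were lower in mIUT. Of 17 tested, 14 were called lower and 2 higher, with a median log2 ratio of -3.72. The summed list was 451 CPM in mIUT and 3512 CPM in uninjected, and 841 and 840 CPM in recipient pIUT and DC-depleted pIUT. The uninjected library was thus above all other recipient libraries, and mIUT was the lowest. Ighm (chr12:113382178-113386350), the IgM heavy chain, had 3108 counts in mIUT and 60437 in uninjected and was 11.5-fold lower (11.1 to 12). Ighd (chr12:113370224-113379944), the IgD heavy chain of mature naive B cells, had 14 and 16365 counts and was 693-fold lower (413 to 1268). The signalling subunit gene Cd79a was 30.3-fold lower. Fcer2a (CD23) and Cr2 (CD21), receptors of follicular and marginal zone B cells, had 0 counts in mIUT and 3358 and 745 in uninjected. The genes against this direction were Cd37, a tetraspanin that other leukocytes share, 1.74-fold higher and not called, Ebf1, a B-lineage transcription factor, with 31 and 5 counts, and Blk, a kinase of B-cell receptor signalling, with 90 and 0 counts.

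Genes of early B cells were higher or not called. Of 10 tested, 7 were called higher and 0 lower, with a median log2 ratio of 4.31, and 4 of the 7 were not detectable in uninjected. The median was 2.36 over the 6 above 3 counts in both libraries. The 3 not called were Cd24a, a surface protein of many precursor cells, 1.72-fold higher, and the transcription factor genes Lef1, with 628 and 2354 counts and 2.22-fold lower, and Myb, with 727 and 3326 counts and 2.71-fold lower. Rag1 (chr2:101468603-101479877) had 508 counts in mIUT and 0 in uninjected, at least 286-fold higher, and Rag2 had 156 and 0, at least 87.7-fold higher. Dntt had 100 and 11 counts and was 15.3-fold higher (8.21 to 31.7). Igll1 and Vpreb3, of the surrogate light chain and pre-B stage, had 43 and 70 counts and both were at 0 in uninjected. Rag1, Rag2 and Dntt are also on in thymocytes. In recipient pIUT and recipient DC-depleted pIUT, Rag1 had 2166 and 431 counts, so the uninjected library was the only 1 of the 4 recipient libraries at 0.

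MHC class II genes lay with the mature B cells. Of 11 tested, 8 were called lower and 1 higher, with a median log2 ratio of -3.55. The summed list was 408 CPM in mIUT and 7446 CPM in uninjected, and 1341 and 1722 CPM in recipient pIUT and DC-depleted pIUT. Here too uninjected was above all other recipient libraries. Cd74 (chr18:60936899-60945731), the invariant chain that guides class II molecules, had 4343 counts in mIUT and 236051 in uninjected and was 32.2-fold lower (31.3 to 33.2). H2-Aa was 18.7-fold lower and H2-Ab1 11.7-fold lower. The class II transactivator Ciita had 39 and 2739 counts and was 41.6-fold lower (30.4 to 58.7). H2-Ea was the exception, 21.2-fold higher (14.3 to 32.6), the gene whose level marks the BALB/c haplotype. B cells, macrophages and DC all carry class II molecules, and the parts they took were not tested.

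Most T-cell genes were not called. Of 18 tested, 2 were called higher and 4 lower, with a median log2 ratio of -0.74. Trbc2, a TCR β constant region, had 3708 counts in mIUT and 8309 in uninjected, and Lck, the kinase of the TCR coreceptors, had 2381 and 4486. Cd4 was 4.80-fold lower (4.28 to 5.39), while Cd8b1 stood at 56.0 and 55.7 CPM. Cd3d (chr9:44893083-44899173) differed in direction from Cd3e and Cd3g. It had 11444 and 1715 counts and was 11.3-fold higher (10.7 to 11.8), whereas Cd3e and Cd3g were 2.70-fold and 2.06-fold lower and not called. Cd247, the CD3 ζ chain, had 534 and 443 counts and was 2.03-fold higher (1.79 to 2.31), also not called. Zap70, the kinase bound to the CD3 chains, had 90 and 0 counts. Thymocyte genes gave 4 called higher and 2 lower of 11, with a median of 0.05 that scaling by library size or by DESeq2 size factors turned negative. Notch1, a receptor that directs T-lineage commitment, had 1051 and 10 counts.

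The lists of gamma-delta, regulatory and NK cells had positive medians with many members not detectable in uninjected, and the medians over members above 3 counts in both were -2.72, -0.22 and 1.09. Of 10 tested gamma-delta T-cell genes, 8 were called higher and 1 lower, with a median log2 ratio of 5.33, and all 8 were not detectable in uninjected. Sox13 (chr1:133310039-133352222), a transcription factor of these cells, had 2169 and 0 counts, and the constant regions Tcrg-C1 and Tcrg-C2 had 241 and 155 counts against 0. Trdc, the δ constant region, went the other way, with 329 and 1804 counts. Of 8 tested regulatory T-cell genes, 7 were called higher and 1 lower, with a median of 3.25, and 6 were not detectable in uninjected. Foxp3, the defining transcription factor, had 31 and 0 counts, and Tnfrsf18 (GITR) had 140 and 1789 and was 7.58-fold lower. The summed regulatory list was 11.1 CPM in mIUT and 37.3 CPM in uninjected, opposite in direction to its median. Of 10 tested NK and cytotoxic genes, 6 were called higher and 4 lower, with a median of 3.58, and 4 were not detectable in uninjected. The summed NK list was 78.4 CPM in mIUT and 183.0 CPM in uninjected, again opposite to the median. Gzma and Gzmb, granzymes, had 982 and 255 counts against 23 and 14, while Nkg7 had 572 and 6551 and Gzmk 0 and 904.

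DC genes were few. Of 7 tested conventional DC genes, 3 were called higher and 2 lower, with a median log2 ratio of 1.38 that was -2.56 over the 4 above 3 counts in both. All 3 called higher were not detectable in uninjected, so the filter fixed these calls. Itgax, which encodes CD11c, had 73 counts in mIUT and 0 in uninjected, Flt3 had 157 and 3144, and Ccr7 had 45 and 1930. Of 6 tested plasmacytoid DC genes, 2 were called in each direction, and their defining gene Siglech was at 0 in both libraries. Of 5 tested plasma-cell genes, 2 were called in each direction, with Jchain at 0 in both. The 2 called higher were not detectable in uninjected, so their calls were fixed as well.

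Cytokine genes were mostly at the floor. Of the 20 genes of the study's qPCR panel, 8 reached 10 counts in either library, 3 were called higher and 2 lower. The 3 called higher were not detectable in uninjected, so the filter fixed these calls. Il2, Il5, Il6, Il13, Il21, Il22, Ifng and Csf2 were at 0 in both. The most abundant were Il1rn, the IL-1 receptor antagonist, with 5141 and 2915 counts and 2.97-fold higher, and Il1b, with 1719 and 1902 counts. Tnf was 2.58-fold lower (2.29 to 2.93), and Tgfb2 had 18 and 3322 counts and was 109-fold lower. Il12a and Il17f had 38 and 22 counts in mIUT and 0 in uninjected. Neither of the last pair came above 1.33 CPM.

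Interferon-stimulated genes gave 6 called higher and 0 lower of 15, a share below the 45.0% of all tested genes, with a median log2 ratio of 0.76 that is also below the 1.22 of all tested genes. Usp18, a negative regulator of interferon signalling, had 2228 and 7 counts, and Ifit3 had 940 and 6. Others of the same program were not called, with Ifit1 1.69-fold higher, Isg15 1.66-fold lower and Oasl2 2.94-fold lower. Of the 6 called, 4 were not detectable in uninjected. Immediate-early genes gave 2 called higher and 3 lower of 16, with a median of -0.71. All 16 were above 3 counts in both libraries, where 18.6% of all genes were called higher and 20.7% lower, and neither count exceeds these shares. Fos was 3.70-fold lower, Junb 5.12-fold lower and Atf3 66.8-fold lower, while Fosl2 was 19-fold higher with 1495 and 133 counts.

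Among cell-cycle genes, those of DNA replication had a median log2 ratio of -1.37 over the 15 above 3 counts in both libraries. Of all 20 tested, 3 were called lower and 6 higher, with a median of -1.16, and 5 of the 6 were not detectable in uninjected. The replicative helicase genes Mcm2 to Mcm7 ranged from 2.53-fold to 4.83-fold lower. Cdc45, a partner of that helicase, went against them with 1584 and 0 counts, and Prim1, a primase subunit, had 602 and 1. Mitosis genes gave 3 called higher and 0 lower of 20, with a median of 0.13 that scaling by library size or by DESeq2 size factors turned negative. Cenpf had 289 and 2 counts and Tpx2 886 and 3, while Plk1, Ccnb1 and Cdc20 differed by 1.27-fold or less. Detected and undetected genes of the same machinery thus stood side by side in the uninjected library.

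Liver and epithelial genes were lower in mIUT. Of 13 tested hepatocyte genes, 11 were called lower and 1 higher, with a median log2 ratio of -5.36, and 4 were not detectable in mIUT. Afp (chr5:90638584-90656766), the fetal serum protein α-fetoprotein, had 3 counts in mIUT and 437890 in uninjected, a ratio of 86551 (interval 29616 to 419697). Afp stood at 9055 CPM in uninjected, 3.96 CPM in recipient pIUT and 120 CPM in recipient DC-depleted pIUT. Trf, transferrin, had 5084 and 194264 counts and was 22.7-fold lower, and Apoa1 was 43.8-fold lower. Alb, the main plasma protein of liver, had only 14 and 953 counts. All 6 tested epithelial genes were called lower, with a median of -7.66. Krt8 (chr15:101905133-101912917) had 0 and 54919 counts, at least 10855-fold lower, Krt18 had 89 and 61017, and Krt19 11 and 14211. The epithelial sum was 6.10 CPM in mIUT, 2819 in uninjected, and 29.1 and 35.0 CPM in the pIUT recipient libraries. Endothelial genes gave 2 called in each direction of 4, and the 3 tested mesenchymal genes were called higher, none with more than 40 counts. All of these higher calls were genes not detectable in uninjected, so the filter fixed them. The endothelial sum was 7.57 CPM in mIUT and 58.6 CPM in uninjected. Imprinted and fetal growth genes gave 3 called in each direction of 8, with Igf2 at 7 and 728 counts and H19 at 94 and 2955. The 3 called higher were not detectable in uninjected, so the filter fixed these calls. Over the 4 above 3 counts in both libraries, the median log2 ratio was -2.97. Hepatocytes and epithelial cells are not mononuclear blood cells, and how their transcripts came into the sorted cells was not tested.

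Genes used by every cell gave the scale for these differences. Of 20 broadly expressed genes, 1 was called lower and 0 higher, with a median log2 ratio of -0.45, and all were above 3 counts in both libraries. Actb was 3.07-fold higher and Rps18 4.30-fold lower. Of 20 cytosolic ribosomal protein genes, 5 were called lower, with a median of -1.72, from Rps9 at 801 and 800 CPM to Rpl5, 10.3-fold lower. The 20 nuclear genes of oxidative phosphorylation gave 0 calls in either direction, with a median of -0.21. The 13 protein genes of the mitochondrial genome were all called lower, with a median of -5.28. Among them mt-Nd1 (chrM:2751-3707) had 2350 and 184015 counts and was 46.4-fold lower (44.6 to 48.4), and mt-Co3 was 4.36-fold lower. The mitochondrial sum was 1709 CPM in mIUT and 27782 in uninjected, and 1099 and 658 CPM in recipient pIUT and DC-depleted pIUT, so that the uninjected library stood apart from the other 3 recipient libraries.

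The genes at both ends of the ranking crossed these lists. Among genes above 3 counts in both libraries and at 50 CPM or more in the higher, the 8 highest ratios included those of Gpr141, Mapk13, Hbp1, Cldn1, Tlr13, Pstpip1 and Ogfrl1. Each of these 7 had 10 counts or fewer in uninjected and 4246 or more in mIUT. Mapk13, a p38 kinase, had 16235 and 7 counts, and Tlr13, a receptor for bacterial ribosomal RNA, had 9326 and 9. The 8 lowest were Alas2, Mt2, Krt19, Hba-a1, Rgs1, Slc3a1, Alox15 and Hba-a2. Rgs1, a brake on chemokine receptor signalling in B cells, had 5 and 5489 counts, and Mt2, a metallothionein, had 6 and 8154.

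Some genes detectable in only 1 of the libraries were abundant there. In mIUT the most abundant that uninjected did not hold were Crispld2, Zmpste24, Plscr1, Trp53inp1, Gda, Slc35a5, Gsdme and Pnpla7. Crispld2, a secreted protein that binds lipopolysaccharide, had 18890 counts in mIUT and 1 in uninjected, and Gsdme, a pore-forming gasdermin, had 6313 and 0. In uninjected the most abundant that mIUT did not hold included Afp, Cxcl13, Krt8, Ly6m, C4b, Prg4 and Gkn2. Cxcl13, the chemokine that draws B cells into follicles, had 1 and 55115 counts. Gkn2 is a gastrokine of the stomach lining and had 0 and 20184. Genes of blood, stroma and gut thus stood side by side in the uninjected set.

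The receptor tables held 666 clonotypes with 4043 reads in mIUT and 148 clonotypes with 66848 reads in uninjected. A clonotype is 1 line of the table, a CDR3 with its segments, and its reads carry no molecular identifiers. The median clonotype had 5 reads in mIUT and 306.5 in uninjected, and the largest 35 and 7017. TCR chains made up 65.8% of clonotypes in mIUT (interval 62.0 to 69.4) and 25% in uninjected (18.3 to 32.8). By reads, the TCR share was 64.7% (63.2 to 66.1) in mIUT and 15% (14.7 to 15.2) in uninjected. Reads of random RNA fragments follow receptor RNA per cell as well as cell number.

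By chain, TRB had 337 clonotypes in mIUT and 22 in uninjected, and IGH had 81 and 54. IGK had 134 and 47, IGL 13 and 10, TRA 57 and 9, TRD 23 and 5, and TRG 21 and 1. Every chain had more clonotypes in mIUT and, TRG apart, fewer reads. TRB reads numbered 2049 in mIUT and 6710 in uninjected, IGK reads 945 and 39160, and TRG reads 145 and 11. Of TRB clonotypes, 94.4% were productive in mIUT and 100% in uninjected.

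**Figure D3:**
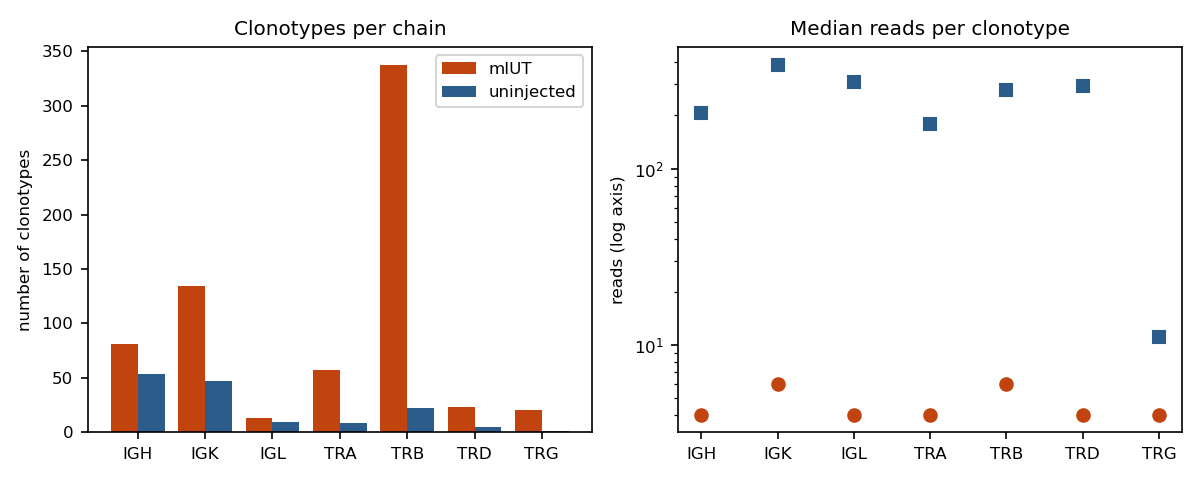
Clonotypes of each receptor chain (left) and median reads of a clonotype on a log axis (right) in mIUT and uninjected. TRB had 337 clonotypes in mIUT and 22 in uninjected, and the median clonotype of each chain had fewer reads in mIUT.

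Heavy-chain junctions differed in their added bases. The largest heavy-chain and β-chain CDR3 of each library are printed 5′ to 3′ to show this, with capitals for bases that matched no V, D or J segment.
IGH mIUT, IGHV1-62-2 with IGHJ3: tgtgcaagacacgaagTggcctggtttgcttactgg
IGH uninjected, IGHV1-52 with IGHD2-3 and IGHJ3: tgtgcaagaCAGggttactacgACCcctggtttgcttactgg
TRB mIUT, TRBV1 with TRBD1 and TRBJ1-1: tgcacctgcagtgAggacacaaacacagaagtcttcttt
TRB uninjected, TRBV17 with TRBD2 and TRBJ2-7: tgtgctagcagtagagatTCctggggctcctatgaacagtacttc
Both chains of mIUT have 1 capital, while the uninjected heavy chain has 6 and the uninjected β chain 2. These clonotypes had 20, 1043, 18 and 1549 reads in the order printed.

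Over all IGH clonotypes, 50 of 81 in mIUT had no added base, 61.7% (interval 50.3 to 72.3). In uninjected 2 of 54 had none, 3.70% (0.452 to 12.7), and the median number added was 0 against 6. For TRB, 201 of 337 had none in mIUT, 59.6% (54.2 to 64.9), and 5 of 22 in uninjected, 22.7% (7.82 to 45.4). The intervals did not overlap for either chain. The recipient libraries of pIUT and DC-depleted pIUT gave 55.9% and 48.4% of IGH clonotypes without an added base. The maternal uninjected library gave 4.34%, or 92 of 2122, and the libraries labelled maternal mIUT, pIUT and DC-depleted pIUT gave 58.3%, 85.7% and 63.6% of 12, 7 and 22 clonotypes. For IGH, the recipient uninjected share was thus near that of the maternal uninjected library and below the other 6. For TRB, recipient pIUT and DC-depleted pIUT gave 38.6% and 49.5%, and the first lies inside the interval of the uninjected share. The median heavy-chain CDR3 was 36 bases long in mIUT and 42 in uninjected.

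**Figure D4:**
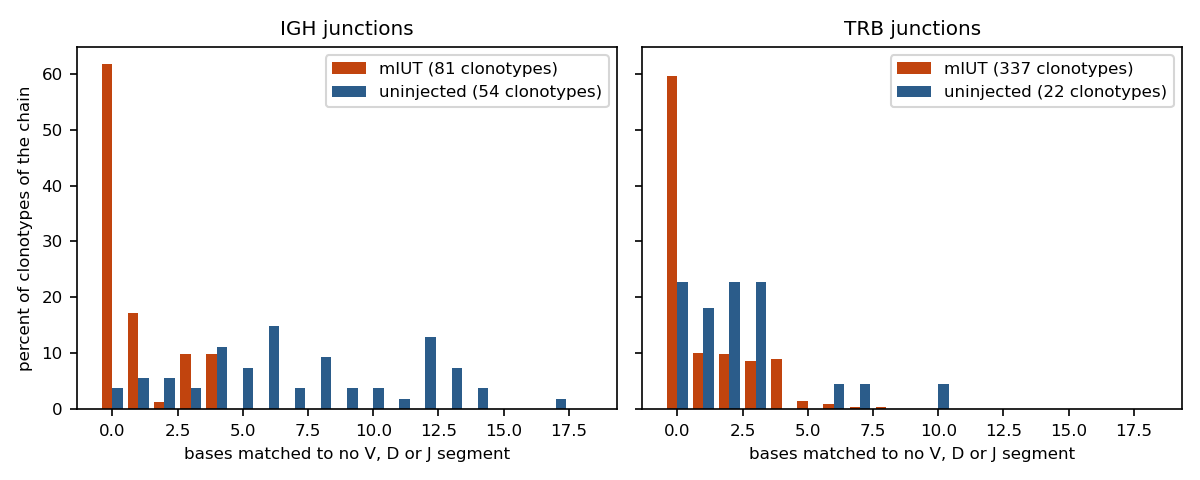
Share of IGH (left) and TRB (right) clonotypes by the number of bases matched to no V, D or J segment. In mIUT 61.7% of IGH and 59.6% of TRB clonotypes had none, against 3.70% and 22.7% in uninjected.

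Segment use in IGH differed as well. The IGHV5 family, which lies near the D segments, held 29 of 81 clonotypes in mIUT, 35.8% (25.4 to 47.2), and 6 of 54 in uninjected, 11.1% (4.19 to 22.6). The larger and more distant IGHV1 family held 19 in mIUT, 23.5% (14.8 to 34.2), and 31 in uninjected, 57.4% (43.2 to 70.8). These shares and intervals count lines, and some lines hold the same CDR3. Merged by nucleotide sequence, IGH came to 69 sequences in mIUT and 39 in uninjected, and family shares were not computed on these. IGHV5-2, the segment also called 81X, had 7 clonotypes in mIUT, 8.64% (3.55 to 17), and 1 in uninjected, 1.85% (0.0469 to 9.89), with intervals that overlap. IGHJ4 was used most in mIUT, in 34 clonotypes, and IGHJ2 in uninjected, in 30. IgD was the constant region of 1 clonotype in mIUT and 10 in uninjected, beside 71 and 39 of IgM.

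Gamma and delta chains in mIUT included junctions known from the early waves of the fetal thymus, in which a V segment joins J in the same way in many cells. Those of TRGV6, TRGV5 and TRDV4 with TRDJ2 are shown for this, beside the largest δ chain of mIUT.
TRGV6 with TRGJ1: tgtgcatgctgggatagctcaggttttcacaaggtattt
TRGV5 with TRGJ1: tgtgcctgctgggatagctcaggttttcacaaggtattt
TRDV4 with TRDD2 and TRDJ1: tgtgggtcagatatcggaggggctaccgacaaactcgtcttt
TRDV4 with TRDJ2: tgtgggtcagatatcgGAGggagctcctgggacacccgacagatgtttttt
The TRGV6 junction had 25 reads in mIUT and 11 in uninjected, the sole TRG clonotype of that library, and 357 and 469 in the pIUT and DC-depleted pIUT recipients. The TRGV5 junction had 16 reads and 0, and the TRDV4 junction with TRDJ1 19 and 0. The TRDV4 junction with TRDJ2 was in both, with 12 and 400 reads. The first 3 junctions hold no added base. The fourth has 3 capitals, but no D was called for it, so they can be a D remnant and not added bases. The TRDD2 line above has the same bases unmarked at that place.

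Few CDR3 sequences were in both libraries. Merged by chain and nucleotide sequence, mIUT held 642 and uninjected 118, and 19 were shared, 2.96% of the first and 16.1% of the second. The shared sequences were 14 IGK, 3 IGL, 1 TRD and 1 TRG, and none was IGH, TRA or TRB. They took 210 reads in mIUT, 5.19%, and 24457 in uninjected, 36.6%. Their median number of added bases was 0. The most abundant light chain of each library was among them.
IGKV1-135 with IGKJ1: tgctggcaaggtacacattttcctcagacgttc
IGKV1-117 with IGKJ2: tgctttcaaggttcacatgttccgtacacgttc
The first had 35 reads in mIUT and 1159 in uninjected. The second had 10 and 7047, the reads of all lines with that sequence. Neither holds an added base, and such light-chain junctions can arise in many cells.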

How the data were processed

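Recipient cells were sorted from whole-body harvests of pooled pups, and RNA was sequenced in 1 library a group. The authors deposited estimated counts per gene, written by salmon and not normalized, although the methods name featureCounts, and StringTie is among the tools of the submitters' notes. The files name GRCm39 as the build. The authors also deposited MiXCR tables, where each clonotype has a clone count of assigned reads, without molecular identifiers. Of the estimated counts, 91.4% were whole, and all were rounded here. Of 52784 genes, 98.0% were matched to a GENCODE vM39 symbol and position on GRCm39.

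CPM is the count over the library total times its TMM factor (edgeR 4.0.16, R 4.3.3, all 8 libraries, 0.689 for mIUT and 1.01 for uninjected). Genes with at least 10 counts in either library were compared, with a floor of 3 counts and a call at 4-fold. Ratio intervals are exact conditional binomial and share intervals Clopper-Pearson. The depth sets a limit of 3 counts for each library. The ratio and its calls were run on simulated data in which both libraries share a mean profile. Those data lack the missing genes of the uninjected library, so they do not show how calls behave there. Python 3.11.15 with pandas 2.3.3 and scipy 1.17.1 was used.

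Members and lists were chosen with earlier results of these data known. The 36 lists hold 488 members, of which 475 matched by symbol, 9 by another name and 4 not at all (Vpreb1, Vpreb2, Azu2 and Ahsp). Genes named outside lists were the 8 highest and 8 lowest ratios above 3 counts in both libraries at 50 CPM or more, and the 8 most abundant of those not detectable in the other library. In each list, the named genes were up to 4 of the most abundant and members against the direction of most. Further members were chosen for their known role, after values were seen, as were Alox15 as an eosinophil gene and the Y-linked genes. Predicted genes, receptor segments and mitochondrial genes were passed over in the ranking. Some genes that these rules name are not reported here. Lines with a TRDJ segment were counted as TRD. A base of a junction counts as added where MiXCR's alignments place it in no V, D or J segment, and where no D was found, a short D remnant can be counted as added.

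Alternatives were scaling by library size, by DESeq2 1.42.0 size factors or by TMM over both libraries alone, minimum counts of 1 and 50, a floor of 10 counts, log2 fold changes from exactTest of edgeR (dispersion 0.4), calls at 2-fold and 8-fold, and clonotypes with at least 2 reads, productive or merged. The maternal libraries and both pIUT recipient libraries were used for side-by-side values only, and those recipient libraries share the uninjected control.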

Additional observations from a re-analysis of the deposited data

Results flagged for a closer look

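In the libraries labelled recipient and in those labelled maternal, mIUT was compared with uninjected, and 9 lists had medians past 4-fold in opposite directions. The difference was not tested, since each side is 1 library. For recipient uninjected, H2-Ea goes against the label, at 0.149 for every 100 counts of H2-Eb1. For maternal mIUT, H2-Ea at 62.4 and the Y-linked Eif2s3y at 2988 counts go against the label, with Ddx3y and Kdm5d at 0. Neither pair is thus shown to be of 1 origin. As log2 ratios of mIUT over uninjected, recipient first and maternal second, the mast cell, basophil and eosinophil list gave 5.86 and -8.11. The gamma-delta T-cell list gave 5.33 and -5.13, and the stem and progenitor list 4.66 and -6.23. The NK and cytotoxic list gave 3.58 and -2.44, the regulatory T-cell list 3.25 and -2.19, and the megakaryocyte and platelet list 2.97 and -5.57. These 6 lists have members not detectable in recipient uninjected, 7 of 11, 8 of 10, 7 of 13, 4 of 10, 6 of 8 and 3 of 6 in the order given, so that their recipient medians rest on the limit of 3 counts. Over members above 3 counts in both recipient libraries, the medians in that order were -1.16, -2.72, -2.99, 1.09, -0.22 and -3.94, so that only the NK and cytotoxic list was still opposite in sign to the maternal median, and it was then short of 4-fold. Among genes with at least 50 counts, the regulatory and megakaryocyte medians were -2.92 and -1.57.

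The other 3 lists were lower in recipient mIUT and higher in maternal mIUT. Hepatocyte genes gave -5.36 and 3.58, epithelial genes -7.66 and 4.26, and genes of the mitochondrial genome -5.28 and 2.57. Their sums in recipient uninjected were 14360, 2819 and 27782 CPM, and in maternal mIUT 4693, 610 and 14298 CPM. These were also the libraries with the most genes missing that all others held, 224 and 134.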

How the results depend on the processing

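No paired analysis was possible because each group has 1 library. The 4-fold counts stayed within 1.5 times under the other scalings, floors and minimum counts, and moved with the fold asked for. At 2-fold, 3898 genes were lower, and above 3 counts in both libraries 2565 were higher and 3032 lower. At 8-fold, 1025 were lower above 3 counts in both. Among genes with at least 50 counts, the medians of the regulatory T-cell list and of the megakaryocyte and platelet list reversed to -2.92 and -1.57, since fewer members were tested, and that of conventional DC, short of 4-fold, turned negative too. With a floor of 10 counts, the regulatory T-cell, NK and mesenchymal medians came under 4-fold. Scaling by library size lowered the share of higher calls from 71.8% to 64.9%. TCR shares and junction shares stayed within their intervals in all 12 values each. The uninjected library's missing genes limit every call against 3 counts, and 1 library a side limits all of them.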
